A study of Phyllostachys edulis with 2 samples.

Results

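Ethylene, abscisic acid (ABA), cytokinin and jasmonate genes were examined in rhizome lateral buds of wild type Moso bamboo (Phyllostachys edulis), at germination stage and at early shoot stage, when the buds were still underground. No treatment is given for either stage. Lateral buds of different rhizomes were pooled for the RNA, and each stage is represented by 1 library. The study compared these libraries to ask how several pathways, among them hormone pathways, change while the bud becomes a shoot. The hormones it compared between the stages were auxin, brassinosteroid and gibberellin. Transcripts were taken as members when the description of their best protein match named a protein of these pathways, which are ethylene or its precursor 1-aminocyclopropane-1-carboxylate (ACC), ABA or its carotenoid precursors, protein phosphatase 2C, cytokinin, histidine kinase, two-component proteins, jasmonate, lipoxygenase, allene oxide or 12-oxophytodienoic acid. Ethylene-responsive factors, other proteins described as transcription factors, pseudo-response regulators and phytochromes had been left out by their usual spelling. This missed 1 transcript described as an ethylene responsive factor without the hyphen. It also kept an ETHYLENE-INSENSITIVE3-like (EIN3-like) transcription factor, Locus_1822, whose description does not contain the word transcription. This gave 111 transcripts of 42 loci, out of 148492 transcripts of 85391 loci. Descriptions that name a protein were found for 2857 loci in all, so that members without such a description are missing here. 2 of the 42 loci, a methylenetetrahydrofolate reductase and a 24-methylene lophenol methyltransferase, were caught because "methylene" contains "ethylene". They are no hormone genes and were set aside, which left 109 transcripts of 40 loci.

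Ethylene is a gas made from ACC by ACC oxidase. Its receptors repress the pathway through the kinase CTR1 until they bind the gas, after which EIN3-type transcription factors switch on target genes. ABA, known for holding buds and seeds dormant, is cut from carotenoids by 9-cis-epoxycarotenoid dioxygenase (NCED) and removed by ABA 8'-hydroxylase. Clade A protein phosphatases 2C (PP2C) keep the SnRK2 kinases off until ABA-bound receptors block them. Cytokinins, which promote cell division and bud outgrowth, are sensed by hybrid histidine kinases and degraded by cytokinin dehydrogenase. Jasmonates arise from linolenic acid by lipoxygenase, allene oxide enzymes and 12-oxophytodienoic acid reductase, and are known for wound and defence responses.

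The table totals were 4481221 reads in germination stage against 7878826 in early shoot stage, and the 40 hormone loci held 0.265% and 0.165% of them. Reads of the matched transcripts were summed per locus. Early shoot reads were divided by 1.8, the median ratio of the transcripts with reads in both libraries. Log2 ratios are early shoot over germination, so that negative values stand for higher expression in germination stage. For single loci and transcripts 1 read was added to each count, but not for reads summed by role or hormone group. The 95% intervals are exact (Clopper-Pearson) for the split of the reads without added reads, and cover counting error only. The G-fold value is the 0.01 quantile nearest 0 of the posterior of the log2 ratio. A locus was called when its G-fold value was beyond 1.0 in either direction and its summed RPKM, the reads scaled to the length of the transcript and to the table total, was above 1.0 in both libraries. There was 1 library for each stage, so that differences are without replicates and p-values were not calculated. As whole buds were sequenced, fewer cells of a type and less RNA per cell cannot be told apart.

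Among descriptions fixed as markers, 4 knotted-like homeobox loci of the shoot meristem had 1372 reads in germination stage against 2172 in early shoot stage. This mark of a bud was thus present in both. The scaled log2 ratio of the sum was -0.19, but single loci ran from -1.04 (Locus_7843) to 0.88 (Locus_8419). Light-harvesting and Rubisco small subunit loci of green tissue had 177 and 357 reads, a scaled log2 ratio of 0.16 (interval -0.10 to 0.43). The only marker of dividing cells, a cyclin-dependent kinase B, had 18 and 227 reads, which gave a log2 ratio of 2.74, and was called higher in early shoot stage. Whether the marker values bear on those of the hormone loci was not tested.

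Of the 40 hormone loci, 36 passed the RPKM cutoff. Calls on the germination side numbered 10 (27.8%) and on the early shoot side 1 (2.78%). Over all 68834 loci above the cutoff 3.7% were called in germination stage against 1.39% in early shoot stage. Over the 2680 tested loci whose descriptions name a protein the shares were 6.38% and 3.54%. Well-sequenced loci are called more easily. When the libraries had to hold at least 50 reads between them, 10 of 32 hormone loci (31.3%) were called in germination stage against 0 in early shoot stage, while the loci with a named protein gave 8.46% and 5.26%. The median log2 ratio was -0.55 for the 36 hormone loci, compared with -0.16 for all loci tested and 0.00 for those with a named protein. The 10 calls on the germination side were 2 loci of ethylene synthesis, 2 of ABA 8'-hydroxylase, 2 of lipoxygenase and 4 of PP2C, and the call on the early shoot side was a CTR1-like kinase. In 12 of the 40 hormone loci the matched transcripts hold under 50% of the reads of the locus. Among the called loci these are Locus_4197, Locus_13256, Locus_14 and Locus_73. Loci with the same best match may be pieces of 1 gene, so that the calls count loci and not genes.

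**Figure D1:**
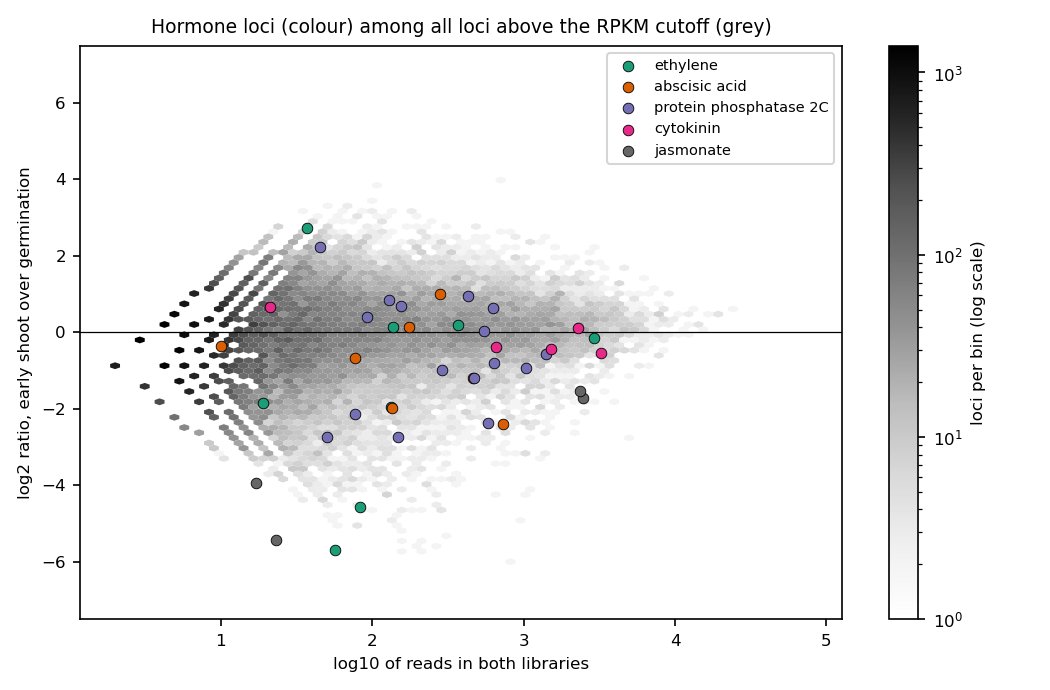
Log2 ratio of early shoot over germination (y axis) against the log10 of the reads in both libraries (x axis), with loci above the RPKM cutoff as grey bins and the 40 hormone loci as coloured points, 4 of which lie below the cutoff. Grey bins count all transcripts of a locus, coloured points only the matched ones. The hormone loci are spread around and below 0, and the median of the 36 above the cutoff is -0.55.

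Hormone synthesis showed the largest differences in the ethylene group. ACC oxidase, which catalyses the last step to ethylene, is the best match of 2 loci, both matched to the same bamboo protein, so that they may be pieces of 1 gene. Locus_6767 had 78 reads in germination stage against 5 in early shoot stage (RPKM 41.8 and 1.69). Its log2 ratio was -4.57 (interval -6.47 to -3.53), and it was called in germination stage. Its transcripts of 462 and 334 bp had 56 and 22 reads in germination stage but 2 and 3 in early shoot stage. Locus_8697 had 56 reads in germination stage against 1 in early shoot stage. That is a ratio of 101-fold without added reads, with an interval from -11.98 to -4.12 on the log2 scale. Its RPKM of 0.38 in early shoot stage left it below the cutoff, and so it was not called. Together the ACC oxidase loci had 134 and 6 reads.

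The third synthesis locus, Locus_8924, is matched to an ethylene-forming enzyme of rice, an older name for ACC oxidase. It had 92 reads in germination stage against 42 in early shoot stage, which gave a log2 ratio of -1.96 (interval -2.54 to -1.44), and was called in germination stage. Both of its matched transcripts lay on that side, at -2.17 and -1.72. Over the 3 synthesis loci, 226 reads in germination stage stood against 48 in early shoot stage, which gave a log2 ratio of -3.08 (interval -3.56 to -2.63).

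The ethylene receptors lay closer to 0. Locus_3500 had 120 and 246 reads and a log2 ratio of 0.18 (interval -0.13 to 0.51), and its 3 matched transcripts ranged from 0.00 to 0.31. Its best matches were mixed, 1 to a receptor of maize, 1 to the ERS receptor of sugarcane and 1, with 57 and 128 reads, to the wheat protein called ethylene responsive factor. The receptor matches alone had 63 and 118 reads, at a log2 ratio of 0.05 (interval -0.40 to 0.52). Locus_49862 is a short receptor transcript of 177 bp with 13 and 6 reads. Its log2 ratio of -1.85 had an interval from -3.65 to -0.47, and its G-fold value was -0.37, too few reads to place it on either side of the threshold. Over both loci the transcripts described as receptors had 76 and 124 reads (interval -0.57 to 0.29), and with the wheat match included 133 and 252 reads (interval -0.23 to 0.39).

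Downstream of the receptors the signalling loci differed from each other. The EIN3-like locus, Locus_1822, was the most abundant of the ethylene group, with 1101 and 1803 reads and RPKM of 266 and 247. Its log2 ratio of -0.14 (interval -0.25 to -0.03) was small, and its 4 matched transcripts lay between -0.32 and 0.15. The CTR1-like kinase in Locus_73 had 2 reads in germination stage against 35 in early shoot stage. It was the only hormone locus called in early shoot stage, with a ratio of 9.72-fold without added reads (log2 interval from 1.32 to 6.38), with a G-fold value of 1.12. The call rests on 1 transcript of 314 bp that holds 0.457% of the reads of its locus. All 11 transcripts of Locus_73 together had 2527 and 5573 reads, a G-fold value of 0.21 and no call. Locus_17, matched to the ethylene-upregulated protein ER1, had 46 and 92 reads and a log2 ratio of 0.14.

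Other genes of ethylene synthesis or signalling that the choice of members had left out were taken from a list of protein names drawn up with earlier results of these data known. S-adenosylmethionine synthase makes the methyl donor from which ACC is formed, and its Locus_475 had 69 reads in germination stage against 13 in early shoot stage, which gave a log2 ratio of -3.17, called in germination stage. The other synthase locus, Locus_184, had 82 and 81 reads and a log2 ratio of -0.87, not called. An ethylene-responsive factor, Locus_25860, had 39 and 4 reads (-3.85) and was called in germination stage. The EIN3-binding F-box protein, which in Arabidopsis marks EIN3 for degradation, went the other way. Its Locus_3121 had 256 and 728 reads and a log2 ratio of 0.66 (interval 0.45 to 0.87), below the threshold. A second CTR1 locus, Locus_78852, had 4 and 19 reads and was not called.

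For ABA, the removing enzyme was higher in germination stage. ABA 8'-hydroxylase is a cytochrome P450 that starts ABA catabolism. Locus_10266 had 547 reads in germination stage against 187 in early shoot stage, with RPKM of 111 and 21.3. Its log2 ratio was -2.39 (interval -2.64 to -2.15), and all 3 of its transcripts lay between -2.83 and -2.22. Locus_12445, matched to the same rice protein, may be a piece of the same gene. It had 93 and 42 reads and a log2 ratio of -1.98 (interval -2.56 to -1.45). Both loci were called in germination stage. The locus of the other hydroxylase, Locus_78340, had 4 and 6 reads, and its interval from -2.34 to 2.01 covers a difference in either direction at this depth.

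NCED, the enzyme that cuts the carotenoid precursor and limits ABA synthesis, was found as 1 locus. Locus_40702 had 36 and 41 reads, which gave a log2 ratio of -0.67 (interval -1.34 to 0.03), and was not called. Each of its 5 transcripts had fewer than 30 reads, and they were looked at singly after the values were seen. The transcript of 403 bp had 19 reads in germination stage against 2 in early shoot stage, with an interval from -7.24 to -2.04. The 3 transcripts of 390 bp together had 13 and 38 reads, with an interval from -0.24 to 1.73, which includes 0. The transcript of 288 bp had 4 and 1 reads. The intervals of the 403 bp transcript and of the 390 bp sum do not overlap. However, the former was the most extreme of 5, and how reads were divided among the transcripts of a locus is not known. Whether the transcripts differ therefore cannot be decided here.

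**Figure D2:**
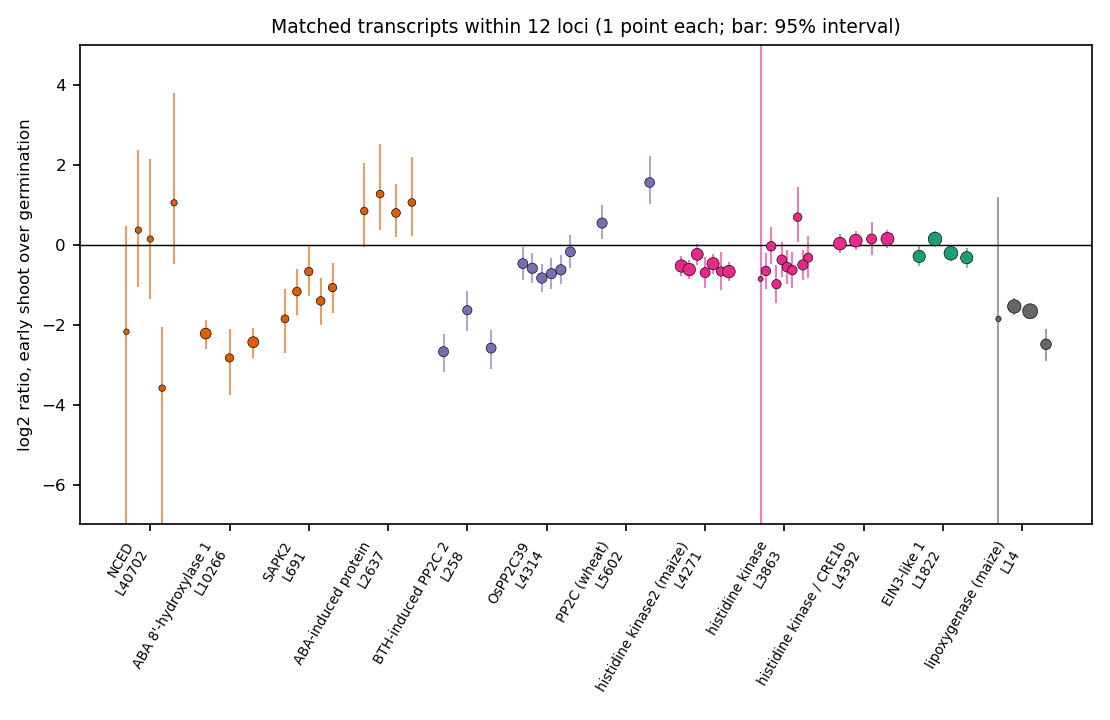
Log2 ratio of early shoot over germination (y axis) for each matched transcript of 12 loci, with point area growing with the reads and bars for the 95% interval, cut at the edges of the plot. Transcripts of ABA 8'-hydroxylase (Locus_10266) lie together between -2.83 and -2.22, whereas those of NCED (Locus_40702) lie on both sides of 0.

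The ABA signalling kinase SAPK2, a SnRK2 kinase, had 260 reads in germination stage against 204 in early shoot stage in Locus_691. Its log2 ratio was -1.20 (interval -1.47 to -0.93), but the G-fold value of -0.88 kept it from being called. The 4 transcripts of equal length (1144 bp) in this locus had 43 to 65 reads in germination stage and 42 to 49 in early shoot stage, and their log2 ratios ran from -1.40 to -0.66. Proteins known to accumulate after ABA had values above 0. The ABA-induced protein of Locus_2637 had 60 and 220 reads, which gave a log2 ratio of 1.01 (interval 0.61 to 1.46), with a G-fold value of 0.54. The abscisic stress ripening protein of Locus_8072 had 58 and 116 reads and a log2 ratio of 0.14 (interval -0.31 to 0.63). Neither was called.

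By summed reads, ABA breakdown had 644 and 235 reads (log2 ratio -2.30), signalling -1.20, synthesis -0.66 and ABA-responsive proteins 0.66. Of the ABA pathway outside the members, 3 loci were listed and 0 were called. These are too few to set against the 6.38% and 3.54% called among loci with a named protein. The bZIP factor ABI5, which mediates ABA responses in seeds, had 32 and 28 reads in Locus_23706 and a log2 ratio of -1.03 (G-fold value -0.18). The ABI3-interacting proteins gave -0.52 in Locus_22173 and 0.87 in Locus_439. ABA receptors and aldehyde oxidase did not appear among the descriptions and were not analysed here.

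**Figure D3:**
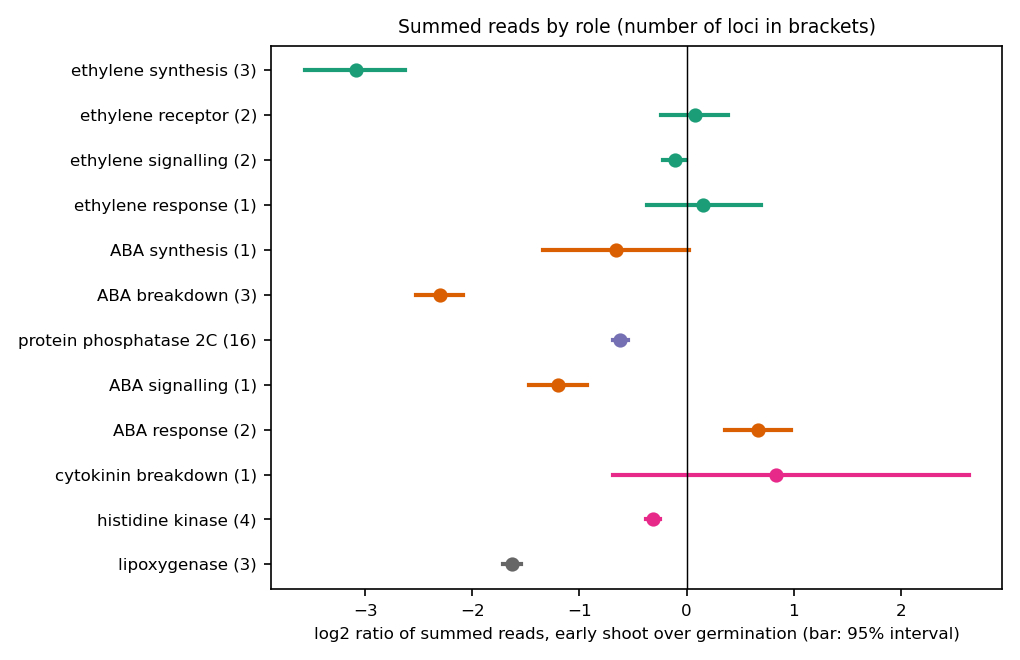
Log2 ratio of the summed reads, early shoot over germination (x axis), for the loci of each role (y axis, number of loci in brackets), with bars for the 95% interval. The receptor role includes the wheat match of Locus_3500. Ethylene synthesis (-3.08), ABA breakdown (-2.30) and lipoxygenase (-1.63) lie lowest, and ABA-responsive proteins (0.66) above 0.

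PP2C formed the largest group, with 41 transcripts of 16 loci. Only clade A members of this family act on ABA signalling, and the descriptions do not give the clade, so the group cannot be read as ABA signalling alone. Its loci spread to both sides. G-fold values were below 0 in 9 loci, above 0 in 5 and 0 in 2. Of the 15 loci above the cutoff, 4 (26.7%) were called in germination stage and none in the other stage. Over all loci the shares were 3.7% and 1.39%, and over those with a named protein 6.38% and 3.54%. With such a share in early shoot stage, no call among 15 loci is not a trait of PP2C. The summed reads, 3095 and 3629, gave a log2 ratio of -0.62 (interval -0.69 to -0.55).

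Among the called PP2C loci, Locus_258 had the most reads. It is matched to a phosphatase of rice that benzothiadiazole (BTH), a chemical inducer of defence, is known to induce. It had 430 reads in germination stage against 150 in early shoot stage, with RPKM of 91.5 and 18.5 and a log2 ratio of -2.36 (interval -2.65 to -2.10). Its 3 transcripts lay between -2.67 and -1.63. Locus_4197, matched to OsPP2C41, had 117 and 31 reads and a log2 ratio of -2.73, with all 4 matched transcripts between -2.98 and -2.05. The remaining called loci had fewer reads. Locus_14048, matched to maize, had 40 and 10 reads (-2.75, interval from -4.01 to -1.82). Locus_13256, matched to rice, had 55 and 22 reads (-2.13, interval from -2.95 to -1.43).

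Below the threshold, a run of well-sequenced PP2C loci lay on the side of germination. Locus_1150 had 262 and 205 reads and a log2 ratio of -1.20, with a G-fold value of -0.89. Locus_7442 (OsPP2C62) had 152 and 139 reads (-0.98). For Locus_281 (OsPP2C45) 533 and 502 reads gave -0.93. That locus joins 241 transcripts, of which only 1 is matched to PP2C, and with all of them the log2 ratio was -0.56. Locus_4255 had 311 and 322 reads (-0.80), and Locus_4314 (OsPP2C39), the most abundant PP2C locus by reads, had 642 and 774 reads (-0.58).

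On the side of early shoot the PP2C loci above the cutoff had log2 ratios below 1. Locus_5602, matched to wheat, had 94 and 332 reads and a log2 ratio of 0.96 (interval 0.64 to 1.32). Its transcripts differed, at 0.55 for that of 1311 bp and 1.57 for that of 1431 bp. Locus_12609 (OsPP2C07) had 30 and 99 reads (0.84), Locus_8993 39 and 116 (0.70), and Locus_1879 (OsPP2C03) 166 and 462 (0.62). None of these was called. The matched transcripts hold 13.5% of the reads of Locus_12609 and 13.0% of those of Locus_8993. OsPP2C43, in Locus_74765, had 4 reads in germination stage against 41 in early shoot stage. Its log2 ratio of 2.22 had an interval from 1.04 to 4.45, but its RPKM of 0.85 in germination stage was below the cutoff, and its G-fold value was 0.88. The intervals of Locus_7663 (193 and 358 reads, 0.04) and Locus_27545 (27 and 66 reads, 0.41) included 0.

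**Figure D4:**
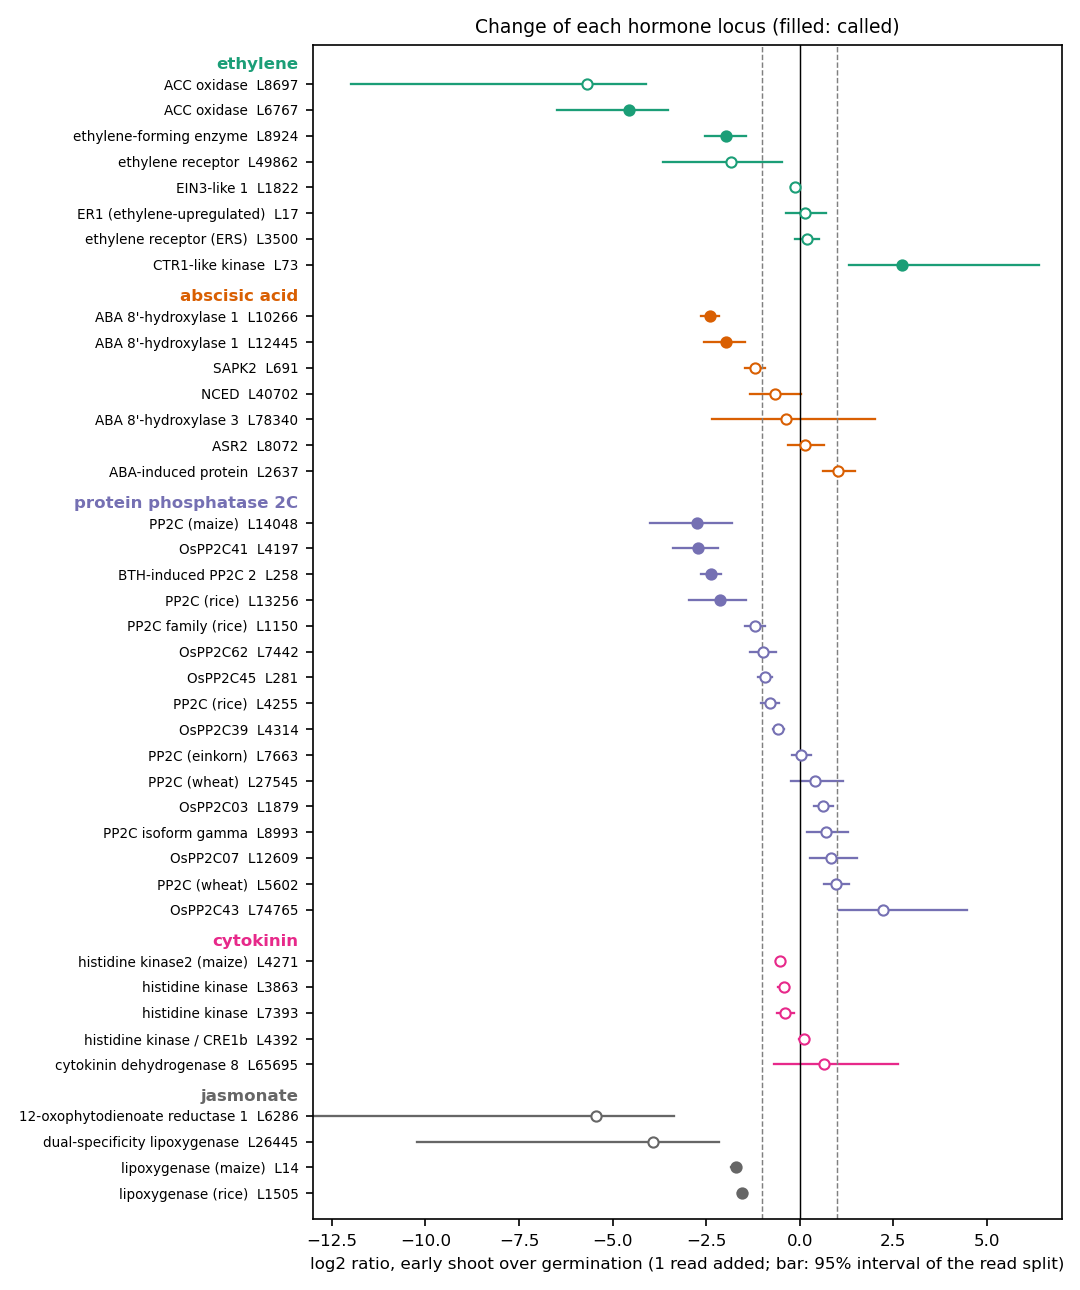
Log2 ratio of early shoot over germination (x axis, 1 read added) for the 40 hormone loci (y axis, Locus numbers after L), with filled points for called loci, bars for the 95% interval of the split of the reads and dashed lines at -1 and 1. All 4 jasmonate loci lie below -1, the 4 histidine kinases lie between -0.53 and 0.11, and the PP2C loci spread from -2.75 to 2.22.

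For cytokinin, 4 loci of histidine kinases held nearly all reads of the group, 3140 in germination stage against 4549 in early shoot stage. Some members of this kinase family are cytokinin receptors, and others may have further roles. No locus was called. Locus_4271, matched to histidine kinase2 of maize, had 1437 and 1791 reads (RPKM 153 and 108), which gave a log2 ratio of -0.53 (interval -0.63 to -0.43), and all 7 of its matched transcripts lay between -0.69 and -0.23. Locus_3863 had 653 and 875 reads (-0.43), and its 7 transcripts of 3651 bp had 55 to 108 reads in germination stage and 80 to 138 in early shoot stage. Locus_7393 had 278 and 383 reads (-0.39). The locus with a transcript described as the cytokinin receptor CRE1b, Locus_4392, differed from these. Its 772 and 1500 reads gave a log2 ratio of 0.11 (interval -0.02 to 0.24), and its 4 matched transcripts lay between 0.04 and 0.16.

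In order of RPKM in germination stage, the histidine kinase loci were Locus_4271 (153), Locus_4392 (59.3) and Locus_3863 (43.3), with Locus_7393 last, and the order was the same in early shoot stage. For the whole set, summed reads gave a log2 ratio of -0.31 (interval -0.38 to -0.25), so that a change of 2-fold in the sum lies outside the counting interval. Cytokinin dehydrogenase 8, which degrades cytokinin, had 5 and 16 reads in Locus_65695 and an interval from -0.68 to 2.63. A 2-fold difference in it could not be detected at this depth. The clock-related pseudo-response regulators, which resemble the response regulators of cytokinin signalling and had been left out of the members, had log2 ratios of 0.54 in Locus_441 and 0.16 in Locus_6484, with no call. Enzymes of cytokinin synthesis and phosphotransfer proteins did not appear among the descriptions and were not analysed here.

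All 4 loci of the jasmonate group were higher in germination stage. By RPKM summed over the matched transcripts, 2 lipoxygenase loci had the highest level of the 40 loci in germination stage. In early shoot stage the EIN3-like Locus_1822 (247) lay between them. Lipoxygenases oxidize linoleic or linolenic acid, and only those that act on carbon 13 feed jasmonate synthesis. The descriptions do not give this position except for a dual type. Locus_1505, matched to a rice lipoxygenase, had 1452 reads in germination stage against 900 in early shoot stage. Its summed RPKM of 846 and 298 came from short transcripts of 364 and 396 bp. With all transcripts of each locus counted, it ranked 74th in germination stage against 379th in early shoot stage among all loci. In that ranking Locus_14 (36th and 327th) and Locus_281 (16th and 58th) stood above it in both stages. Only 1 of the 241 transcripts of Locus_281 is matched to PP2C. The EIN3-like Locus_1822 (341st) stood above Locus_1505 in early shoot stage only. The log2 ratio of Locus_1505 was -1.54 (interval -1.66 to -1.42), and its transcripts lay close together, at -1.55 and -1.53.

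The other abundant lipoxygenase locus, Locus_14, had 1588 and 874 reads on 4 matched transcripts (RPKM 430 and 126), which gave a log2 ratio of -1.71 (interval -1.83 to -1.59). Its 3 transcripts with at least 30 reads lay between -2.49 and -1.54. With all 13 transcripts of the locus, 6110 and 3173 reads gave -1.79. Both loci were called in germination stage. The locus of the dual positional lipoxygenase, Locus_26445, had 16 reads in germination stage against 1 in early shoot stage, with an interval from -10.24 to -2.16.

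12-oxophytodienoic acid reductase, matched to type 1 of Setaria, had 23 reads in germination stage against 0 in early shoot stage in Locus_6286. Against a floor of 3 reads for the early shoot library, and with the 23 reads taken as exact, it was at least 13.8-fold lower there. The interval that counts the error of both libraries ends nearer to 0, at a log2 ratio of -3.37. Enzymes of this type 1 are not the ones known to make jasmonate in Arabidopsis, where a peroxisomal reductase of another type does so. Both this locus and Locus_26445 fell below the RPKM cutoff in early shoot stage, so that they could not be called. Further along the pathway, the jasmonate receptor subunit COI1 had 69 and 168 reads in Locus_2507, which gave a log2 ratio of 0.42 (interval 0.02 to 0.86). Acyl-CoA oxidase, which shortens the side chain in peroxisomes, had 130 and 164 reads in Locus_5099 and a log2 ratio of -0.52. Neither was called. JAZ repressors were not found by the terms used and were not analysed here.

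**Figure D5:**
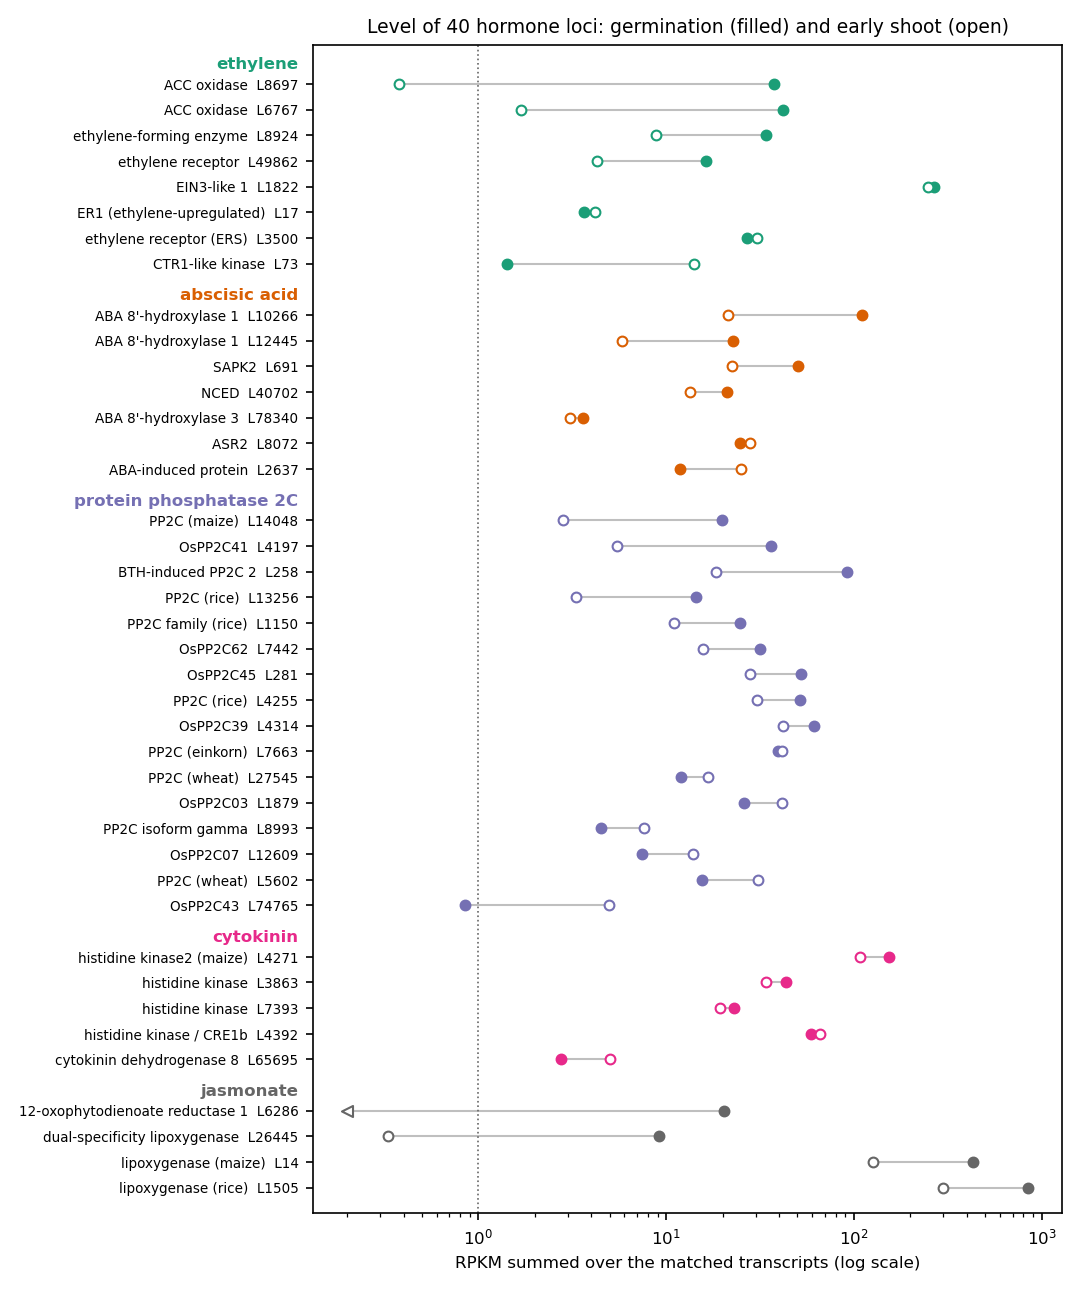
RPKM summed over the matched transcripts (x axis, log scale) of the 40 hormone loci (y axis) in germination stage (filled) and early shoot stage (open), with the cutoff of 1.0 dotted and an open triangle at the left edge for 0 reads. The lipoxygenase loci Locus_1505 and Locus_14 have the highest levels in germination stage, 846 and 430, and ACC oxidase (Locus_8697) lies at 37.4 and 0.38.

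The cutoff of RPKM above 1.0 in both libraries removes loci that are nearly silent in one stage. With the cutoff in at least 1 library, 13 of the 40 hormone loci (32.5%) were called in germination stage against 1 in early shoot stage, compared with 4.95% and 1.33% of all loci and 7.62% and 3.51% of those with a named protein. The 3 added loci were Locus_8697, Locus_6286 and Locus_26445. Grouped by role, a grouping chosen after the values were seen, the 12 loci matched to hormone-making or hormone-removing enzymes, lipoxygenases and the reductase gave 9 of these 13 calls, and PP2C the other 4. Of these 9, the 3 lipoxygenases and the reductase may not act in jasmonate synthesis. The choice of members had left out 13 listed pathway loci. With the cutoff in both libraries, 2 of them were called in germination stage against 0 in early shoot stage. By that rule the shares were 3.7% and 1.39% of all loci and 6.38% and 3.54% of those with a named protein.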

How the data were processed

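RNA of pooled buds was sequenced on an Illumina Genome Analyzer II, with a single library at each stage. The tables deposited by the authors give raw read counts per transcript, a best protein match and its description. The RPKM values were also calculated by the authors, and recalculating them from counts, lengths and table totals gave the same values to within 0.0483. The submitters' processing notes list TopHat2 2.0.8b and Cufflinks 2.2.1 without a role, and the program that counted the reads on these transcripts is not given in the sources used here. Descriptions that name a protein cover 4.47% of transcripts.

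Counts were read with pandas 2.3.3, NumPy 2.4.6 and SciPy 1.17.1 under Python 3.11.15, figures were drawn with matplotlib 3.10.9, and the TMM factor came from edgeR 4.0.16 under R 4.3.3. The G-fold value follows the idea of the program Gfold, with 1 added to each count in a beta posterior. It was tested on counts simulated with counting error only, so that variation between buds of a stage was not covered. The members and lists were chosen with earlier results of these data known. Named loci were the called ones, the 3 with the most reads in each group, and others with at least 100 reads, up to 12 per group. This gave 32 loci, and the other 8 hormone loci were described after their values were seen. Intervals cover counting error only. Reads may be shared among transcripts of 1 locus, which would make the intervals of sums too narrow. Alternatives were other scalings, call rules, cutoffs, depths and ways of summing a locus. No genome or protein sequence was used here.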

Additional observations from a re-analysis of the deposited data

How the results depend on the processing

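Under the alternatives tried, the number of hormone loci called in germination stage was 9 to 13 except in a pair of cases, 4 with a G-fold threshold of 2.0 and 7 without the loci matched on under 50% of their reads. In early shoot stage the 1 call, the CTR1-like kinase, was lost (0 calls) with a threshold of 2.0, with at least 50 reads, with all transcripts of a locus, and without the loci matched on under 50% of their reads, an alternative chosen after seeing the data. It became 2 with the plain log2 ratio and with log2 of RPKM with a pseudocount of 0.1 or 1.

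Over all loci, calls numbered 2545 for germination stage against 960 for early shoot stage. These became 13678 and 7165 with the plain log2 ratio, 849 and 100 with a threshold of 2.0, 13389 and 12105 with log2 of RPKM and a pseudocount of 0.1, and 11014 and 8680 with a pseudocount of 1. In germination stage they were 4144 without a cutoff or with RPKM above 1.0 in at least 1 library, and in early shoot stage 1517 with a quantile of 0.05.

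Summed reads of the ethylene group reversed from -0.28 to a log2 ratio of 0.031 with all transcripts of each locus. They moved to -0.44 with the most abundant matched transcript and to -0.78 without Locus_1822. For ABA the sum of -1.22 moved to -0.90 with all transcripts and to -0.55 without Locus_10266. For PP2C it was -0.54 with the upper quartile and with the median ratio over loci, and -0.46 with all transcripts. For cytokinin it was -0.23 with either of these scalings, -0.21 with all transcripts, -0.15 without Locus_4271 and -0.48 without the loci matched on under 50% of their reads. For jasmonate it was -1.75 with all transcripts. The other scalings raised every log2 ratio by 0.03 to 0.08. Of the 280 values for single loci under alternatives, 8 left the interval and none of the called ones changed sign, while 4 loci near 0 changed sign with all transcripts (Locus_3500, Locus_17, Locus_7663 and Locus_27545) and 1, Locus_78340, went from -0.36 to 0.26 with early shoot reads thinned to the germination total. The causes were not tested. No paired analysis was possible because there is 1 library per stage.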
